A study of Rattus norvegicus with 30 samples.

Results

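Genes named Zfp, Zbtb, Zscan or Zkscan and a number were taken as the zinc-finger members of the transcriptome of rat bone marrow mesenchymal stem cells (BMSCs), chosen by their names and by a level of at least 1 CPM (reads of a gene scaled to a common library size) in at least 3 of 30 samples. Of 9999 gene names in the files 103 matched, and 48 of them reached that level, out of 4363 genes that did so overall. They comprised 42 Zfp, 4 Zbtb and 2 Zkscan genes, whereas 0 of 5 Zscan names reached it. The study asked which transcription factors change when BMSCs enter the bone, fat or cartilage lineage. Cells were flushed from the femurs and tibiae of 3 female Sprague Dawley rats aged 3 weeks, grown to passage 2 in serum-containing medium, plated in 12-well plates, and given a commercial osteogenic (OS), adipogenic (AD) or chondrogenic (CH) differentiation medium 2 days later. RNA was taken after 3, 12 and 72 h of each medium and from undifferentiated cells at 0 h, with 3 samples in each of the 10 groups and 3 cultures pooled into a sample. The labels give no transgene or deletion for any group. The same 0 h samples were the reference for all 9 comparisons with 0 h, and no cells kept in growth medium for 3, 12 or 72 h were analysed here.

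Zinc-finger proteins fold short loops around zinc ions, and most of them read DNA. The largest class joins an array of C2H2 fingers to a KRAB domain, which recruits a corepressor complex and silences chromatin, and members with a BTB or SCAN domain pair with each other through it. Others work on RNA, such as the CCCH protein Zfp36 (tristetraprolin), which binds AU-rich elements in short-lived mRNAs and brings them to deadenylation. In marrow stroma the family is known for Zfp423 and Zfp467, which favour fat cells, and for Zfp521, which restrains fat and modulates bone cell formation.

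Upstream sequence is shown for 2 abundant members that rose at 72 h (Zfp36 and Zfp503) and for 2 members whose levels were raised at 3 or 12 h (Zfp593 and Zfp367). Each line gives the 250 bases before the start of the gene in RefSeq (build GRCr8), 5′ to 3′ on the strand of the gene, with matches to the searched motifs in capitals.
Zfp36 (chr1:92799109-92799358, minus strand): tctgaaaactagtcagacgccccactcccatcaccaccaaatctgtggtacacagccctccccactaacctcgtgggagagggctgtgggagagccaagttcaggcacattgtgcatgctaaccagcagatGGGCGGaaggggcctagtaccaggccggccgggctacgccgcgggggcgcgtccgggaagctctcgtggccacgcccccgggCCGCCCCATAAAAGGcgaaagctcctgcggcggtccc
Zfp503 (chr15:2362200-2362449, plus strand): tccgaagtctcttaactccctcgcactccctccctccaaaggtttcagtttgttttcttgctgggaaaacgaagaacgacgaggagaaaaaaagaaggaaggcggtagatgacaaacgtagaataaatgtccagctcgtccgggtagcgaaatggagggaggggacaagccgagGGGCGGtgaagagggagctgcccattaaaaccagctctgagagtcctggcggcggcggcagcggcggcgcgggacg
Zfp593 (chr5:151748725-151748974, minus strand): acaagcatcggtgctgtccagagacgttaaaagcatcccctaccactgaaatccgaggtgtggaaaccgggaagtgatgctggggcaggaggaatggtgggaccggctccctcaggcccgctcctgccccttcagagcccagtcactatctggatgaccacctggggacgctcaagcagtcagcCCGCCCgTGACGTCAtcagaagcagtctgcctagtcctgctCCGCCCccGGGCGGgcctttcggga
Zfp367 (chr17:970646-970895, plus strand): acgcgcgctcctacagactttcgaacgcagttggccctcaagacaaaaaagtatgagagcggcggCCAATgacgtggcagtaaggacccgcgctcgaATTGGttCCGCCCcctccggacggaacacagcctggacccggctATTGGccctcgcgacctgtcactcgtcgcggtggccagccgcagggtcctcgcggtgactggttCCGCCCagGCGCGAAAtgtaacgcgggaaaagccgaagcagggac
The searched motifs were the GC box (GGGCGG), the CCAAT box (CCAAT), the TATA box (TATAAA), the E-box (CACGTG), the cAMP response element (TGACGTCA), the AP-1 site (TGAGTCA), the CArG box of serum response factor, E2F sites (TTTGGCGC or TTTCGCGC) and the glucocorticoid receptor half-site (AGAACA), each on both strands. A GC box was found in all 4 sequences. Zfp36 also held a CArG box, 23 to 32 bases before the start and overlapping a GC box, which 1.50% of all 27457 promoters and 0.936% of the 3206 promoters of tested genes held. Zfp593 held a cAMP response element (1.70% of all promoters and 2.84% of those of tested genes). Zfp367 held 3 CCAAT boxes and the E2F site TTTCGCGC on the opposite strand, the latter present in 0.262% of all promoters and 0.561% of those of tested genes. Promoters were listed for 37 of the 48 members, and 54.1% of them held a GC box, against 32.4% of all promoters and 59.5% of those of tested genes.

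Sample totals, recovered from the values, ran from 3899609 to 9046719 reads (median 6579543), the listed genes held 38.9 to 71.4% of them, and 3 reads, taken as the floor of detection per library, were 0.332 to 0.769 CPM. The floor covers counting error only. The mesenchymal markers Thy1, Cd44, Itgb1 and Pdgfrb passed the filter of 1 CPM in 3 samples, whereas Eng and Vcam1 were at or near 0 and Pdgfra, at up to 1.82 CPM, did not pass it (Pdgfrb reached 1.77 CPM). The summed markers were 16085 to 16892 CPM at 0 h and 4112 to 23217 CPM over all samples, with the lowest sums in AD at 72 h (4112 to 4779 CPM). The measured haematopoietic markers (4 of 10) summed to at most 4.08 CPM and the endothelial ones to 0.740 to 7.08 CPM in any sample. Genes that every cell uses, such as Cul3, Xrn1 and Sin3a, were also at or near 0, so a 0 here says only that a gene is listed at 0. Of the samples, 3 lay far from the other samples of their group, with 366 (OS 3 h, replicate 3), 299 (AD 12 h, replicate 1) and 425 (AD 72 h, replicate 3) genes over 1 log2 unit away, against 33 to 219 genes in the other samples. Results that changed without any of these are given both ways.

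Among the 48 members, 23 had at least 1 CPM in every sample and 12 had at most 3 reads in at least 15 samples. Of these 12, 5 (Zfp354c, Zfp541, Zfp583, Zfp775 and Zkscan5) fell under the filter when the samples of 1 group were set aside, so their differences are described without weight. Zfp775 and Zkscan5 lay just inside the filter with 3 samples at 1 CPM, and Zfp819 and Zscan25 just outside with 2, at up to 1.64 and 1.60 CPM. The 55 matching names under the filter included 38 with at most 3 reads in every sample. Together the members took 1237 to 1319 CPM at 0 h, of which Zfp36 alone gave 40.5 to 44.7%. At 72 h the sum was 2198 to 2289 CPM in OS, 2350 to 2979 CPM in AD and 1883 to 2268 CPM in CH, and without Zfp36 it was 892 to 991 CPM in these 9 samples. Most of the rise of the sum at 72 h was thus Zfp36.

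**Figure D1:**
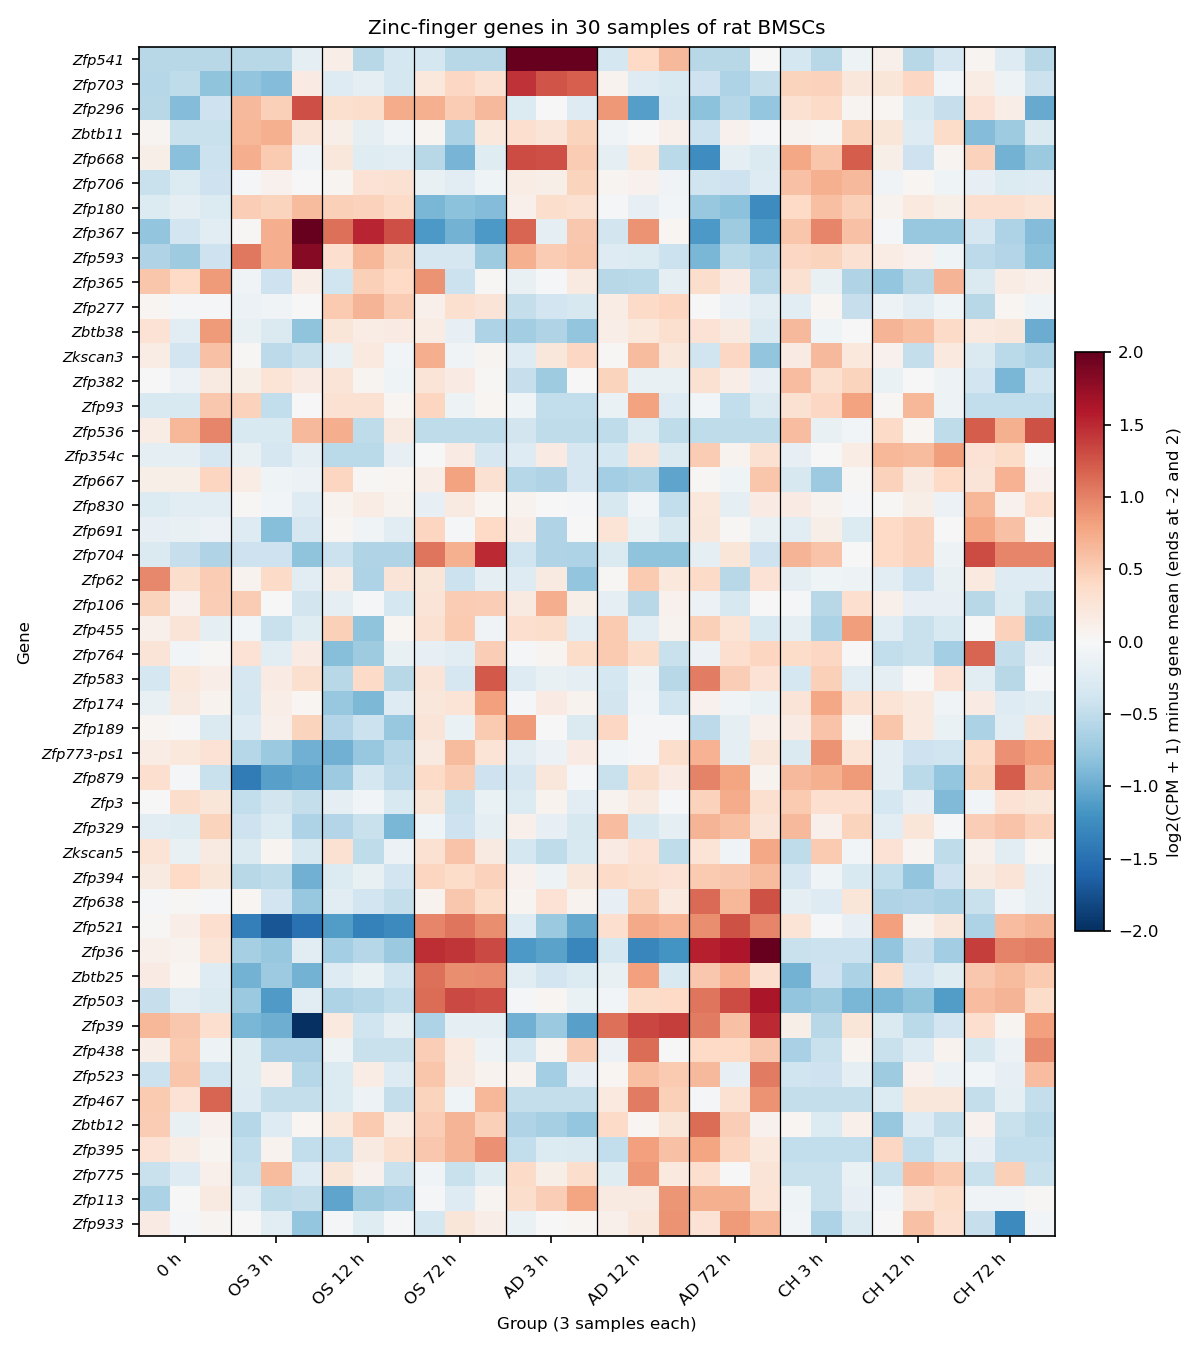
Levels of the 48 zinc-finger members (vertical) in the 30 samples (horizontal, 3 per group), as log2(CPM + 1) minus the mean of the gene over all samples, with red above and blue below the mean. Members are ordered by clustering of these values, and the block of red in Zfp36, Zfp503 and Zbtb25 at 72 h and in Zfp541 and Zfp703 at 3 h of AD can be seen.

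A member was counted as changed when its log2 fold change reached 1 in either direction with a Benjamini-Hochberg adjusted p below 0.05 in limma, fitted on log2(CPM + 1) of all tested genes in 1 model of 10 groups. SEs are those of this model, errors after ± are SDs of 3 samples, and the scale understates the change of low genes. In OS, 7 members changed at 3 h (3 higher and 4 lower), beside 18.4% of all tested genes. At 12 h there were 4 (3 higher and 1 lower), beside 21.8%, and at 72 h 6 (5 higher and 1 lower), beside 12.5%. In AD, 9 members changed at 3 h (4 higher and 5 lower, Zfp541 included, beside 18.8% of all genes), 4 at 12 h, all lower (13.7%), and 4 at 72 h (3 higher and 1 lower, 15.3%). In CH, 5 members changed at 3 h (4 higher and 1 lower, 18.0%), 0 at 12 h (14.4%) and 2 at 72 h (1 higher and 1 lower, 18.0%). For CH at 12 h limma gave 19 members at an unadjusted p under 0.05, beside 41.9% of all tested genes, and edgeR on the recovered reads called 5 (1 higher and 4 lower, beside 17.4% of all tested genes). In the 9 comparisons together 20 of 48 members changed at least once, against 53.2% of all tested genes, and 8 of them in a single comparison. By limma the share of members was therefore below that of all genes in most comparisons, equal to it in OS at 72 h and close to it in AD at 3 h. With edgeR this order did not hold throughout, since 32 of 48 members were called at least once, against 60.2% of all tested genes.

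The counts by direction moved with the scaling. Median-ratio scaling shifted the median of all genes by -0.21 to 0.11 on the log2 scale in these comparisons. That median includes low genes, in which the added 1 damps the shift, and genes with many reads moved further. The relative scaling factors were 0.887 to 0.902 at 0 h and, for example, 1.09 to 1.16 at 3 h of CH. The split of higher and lower members then became 3 and 6 in OS at 3 h (18.3% of all tested genes called), 1 and 4 in OS at 12 h (20.6%), 3 and 8 in AD at 3 h (18.2%), 1 and 2 in CH at 3 h (16.0%), and 0 and 5 in CH at 12 h (13.6%). With edgeR the split of higher and lower was 3 and 10 in OS at 3 h (23.1% of all tested genes called), followed by 2 and 9 at 12 h (26.9%), then 5 and 3 by 72 h (15.9%). For AD it was 5 and 9 (23.3%), 1 and 4 (16.6%) and 4 and 1 (20%) at these times, and in CH 3 and 5 at 3 h (20.7%) and 1 and 2 at 72 h (21.7%). Over all 24 comparisons (with 0 h, between successive times and between lineages) there were 96 calls, of which 0 changed sign under any scaling, 91 were also made by edgeR and 88 after median-ratio scaling. In 38 the call was lost without 1 library, most often replicate 3 of 0 h.

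**Figure D2:**
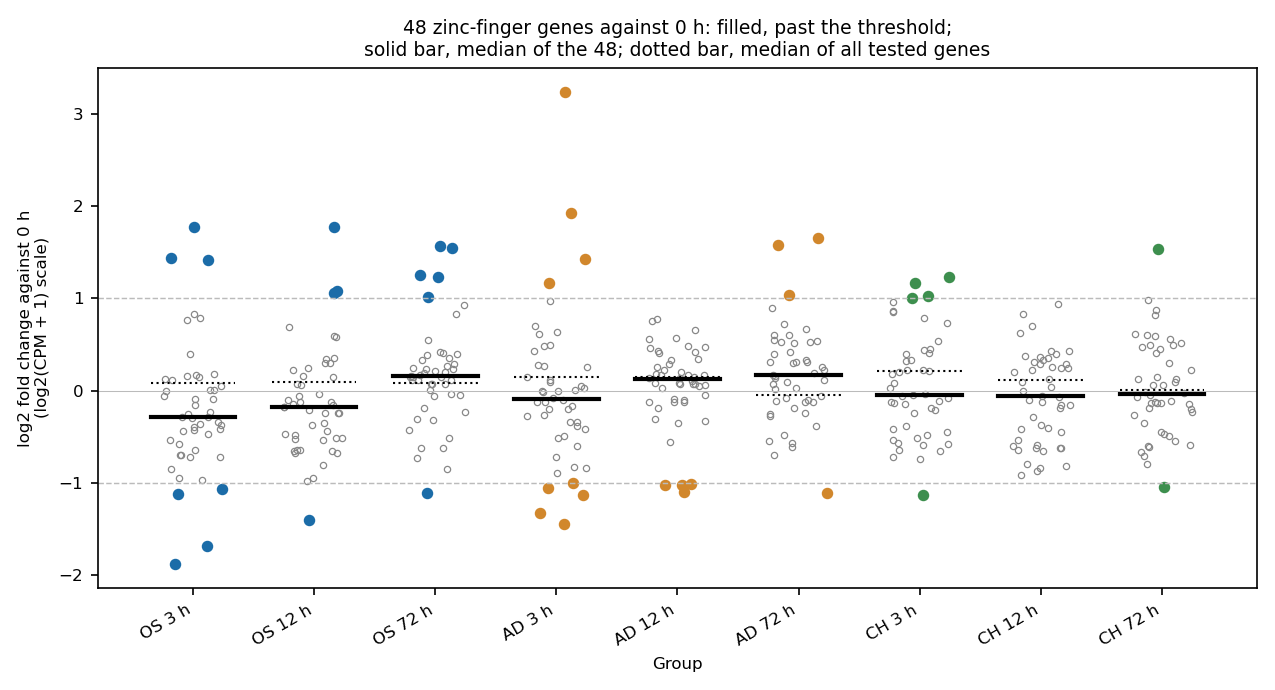
Log2 fold change against 0 h (vertical, log2(CPM + 1) scale) of the 48 members in each of the 9 groups (horizontal). Filled points passed the threshold and open points did not, the solid bar is the median of the members and the dotted bar that of all 4363 tested genes, and the median of the members lay between -0.29 (OS 3 h) and 0.16 (OS 72 h and AD 72 h).

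Zfp36, the mRNA decay factor, was the member with the most reads, and rose at 72 h in OS and AD after lower levels at 3 and 12 h. Its level was 521, 512 and 589.9 CPM in the 0 h samples. In OS it was 307, 287 and 419 CPM at 3 h, 305, 327 and 292 at 12 h and 1350.2, 1313 and 1214 by 72 h. In AD it was 218, 232 and 197 CPM at 3 h, 382, 197 and 212 at 12 h and 1429, 1488 and 1991 by 72 h. All samples of 3 and 12 h thus lay below all of 0 h, and all of 72 h above. The CH samples followed the same order, with 356, 361 and 359 CPM at 3 h, 282, 354 and 299.7 at 12 h and 1277, 969 and 991 by 72 h. The rise over 0 h was 2.39-fold in OS at 72 h (log2 fold change 1.26, SE 0.17, adjusted p 9.00e-07) and 3.03-fold in AD (log2 fold change 1.58, SE 0.17, adjusted p 9.86e-09). The difference in CH fell just short of the fold threshold (log2 fold change 0.99, SE 0.17, adjusted p 2.48e-05). The fall passed the threshold in AD at 3 h (log2 fold change -1.32, SE 0.17, adjusted p 2.18e-07) and at 12 h (log2 fold change -1.10, SE 0.17, adjusted p 6.52e-06). EdgeR also called the lower levels at 12 h of OS (-1.09) and of CH (-1.01), which limma put at -0.81 and -0.80. The AD 12 h call was lost without replicate 2 (-0.92) or replicate 3 (-0.97) of AD at 12 h, the remaining group then including the outlying replicate 1 at 382 CPM. From 12 to 72 h Zfp36 rose in each lineage, by a log2 fold change of 2.07 in OS, 2.68 in AD and 1.78 in CH (adjusted p 2.19e-11, 9.97e-14 and 1.27e-09). At 72 h of AD the summed mesenchymal markers were below those of 0 h, and Thy1 stood at -4.24 on the log2 scale (limma). The haematopoietic markers there summed to 2.38 to 4.08 CPM, against 0 to 0.557 CPM at 0 h, with Lyz2 higher by 1.35 on the log2 scale. Adgre1 was at a mean of 1.59 CPM there and listed at 0 at 0 h, Csf1r was at 0.0594 CPM against 0.139 CPM at 0 h, and Cd34 was listed at 0. The part of these markers in the AD values of Zfp36 was not tested. In OS at 72 h, where Zfp36 also rose, the mesenchymal markers summed to 15633 to 17096 CPM, with Thy1 at -1.12 on the log2 scale, and the haematopoietic ones to 0. The endothelial markers in that group summed to 5.46 to 7.08 CPM, against 3.34 to 4.74 CPM at 0 h, with Tek higher by 2.12 on the log2 scale (adjusted p 6.34e-05 in limma) and Vwf at -0.76, and their part in the OS values was not tested either. In CH at 72 h the mesenchymal markers summed to 9106 to 9584 CPM, with Thy1 at -1.76 on the log2 scale, and the haematopoietic ones to at most 0.442 CPM. The part of this shift in the CH values at 72 h, those of Zfp704, Zfp536 and Zfp180 included, was not tested. In AD at 12 h the mesenchymal markers summed to 9411 to 12495 CPM, against 16085 to 16892 CPM at 0 h. The part of that shift in the AD values at 12 h, those of Zfp365, Zfp667 and Zfp39 included, was not tested either. Bulk RNA cannot tell more cells of a type from more RNA per cell.

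The relatives Zfp36l1, Zfp36l2 and Zfp36l3 were not analysed here. Among 13 known AU-rich mRNAs, most of them of cytokines and chemokines, 6 were tested. At 72 h all 6 had fallen in OS and in CH and 4 of 6 in AD, and Il6, Il1b, Cxcl2 and Csf2 were lower in all 3 lineages. Their median log2 fold changes at 72 h were -2.27 in OS, -1.61 in AD and -2.81 in CH, beside medians of 0.08, -0.05 and 0.01 for all tested genes. At 3 h limma gave 2 higher and 2 lower in OS, 3 higher and 1 lower in AD, and 0 higher and 4 lower in CH. At 12 h it gave 2 higher and 2 lower in OS, 0 higher and 3 lower in AD, and 0 higher and 4 lower in CH, with median log2 fold changes of -0.44, -1.13 and -2.21. Zfp36 itself was below 0 h in every sample of 3 and 12 h, and its part in the levels of these mRNAs at any time was not tested. At 3 h edgeR did not call Cxcl1 in OS (0.92), and also called Il6 (-1.03) and Ccl2 (-1.20) lower in AD and Ccl2 (-1.04) lower in CH. At 12 h it did not call Cxcl1 in OS (0.90), and also called Il1b lower in OS (-1.57) and Cxcl2 lower in AD (-1.49). Of the 16 genes of deadenylation and decapping, 2 were tested (Cnot2 and Pabpc1), and limma called neither in the 9 comparisons with 0 h (Cnot2 had an unadjusted p under 0.05 in 2 and Pabpc1 in 4). EdgeR called Cnot2, at 1.69 CPM in the mean of 0 h, lower in OS at 12 h (-1.98) and in CH at 3 h (-1.95).

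Zfp503 and Zfp703, the paired members of the NET family of transcriptional repressors, were highest at different times in AD and CH and at the same time, 72 h, in OS. Zfp503 was at 87.5, 105 and 98.3 CPM at 0 h. At 72 h it reached 263, 304 and 297 CPM in OS, 256, 301 and 375 in AD and 187, 194 and 155 in CH. Every 72 h sample lay above every 0 h sample. The rise over 0 h was 2.98-fold in OS (log2 fold change 1.57, SE 0.16, adjusted p 6.26e-09) and 3.21-fold in AD (log2 fold change 1.66, SE 0.16, adjusted p 1.47e-09), and that in CH stayed under the fold threshold (log2 fold change 0.88, SE 0.16, adjusted p 6.71e-05). Zfp503 also rose from 12 to 72 h in OS (1.80), in AD (1.10) and in CH (1.50), all log2 fold changes past the threshold. In AD that call was lost without replicate 3 of 72 h (0.95) or replicate 1 of 12 h (0.95), both among the outlying samples. The shift of the marker sums at 72 h of AD also stands beside these AD values, and its part in them was not tested. At 12 h its level was lower in CH (63.7, 68.7 and 55.1 CPM) than in AD (117, 157 and 160.2 CPM), by a log2 difference of -1.19 (SE 0.16, adjusted p 1.04e-06).

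Zfp703 rose early and most in AD. Its level was 29.8, 30.9 and 25.2 CPM at 0 h and 123, 108 and 103 CPM at 3 h of AD, a 3.89-fold rise (log2 fold change 1.92, SE 0.19, adjusted p 1.23e-09). By 12 h of AD it was back at 46.8, 37.0 and 35.7 CPM, a fall of -1.46 on the log2 scale (adjusted p 4.07e-07). At 3 h of OS it was 25.4, 24.0 and 50.1 CPM, where the highest value came from the outlying replicate 3. By 72 h of OS it was 51.6, 59.6 and 55.0 CPM, above every 0 h sample and under the fold threshold (log2 fold change 0.93, SE 0.19, adjusted p 2.84e-04). AD exceeded OS at 3 h in every sample, with a log2 difference of -1.79 for OS against AD (adjusted p 1.81e-08). In CH at 3 h the samples held 61.1, 61.4 and 52.1 CPM, all above 0 h (log2 fold change 1.0, SE 0.19, adjusted p 6.95e-05). That call lay at the threshold. It was lost after median-ratio scaling (0.67), with edgeR (0.74) and without replicate 1 (0.96) or 2 (0.96) of CH 3 h or replicate 3 of 0 h (0.91).

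**Figure D3:**
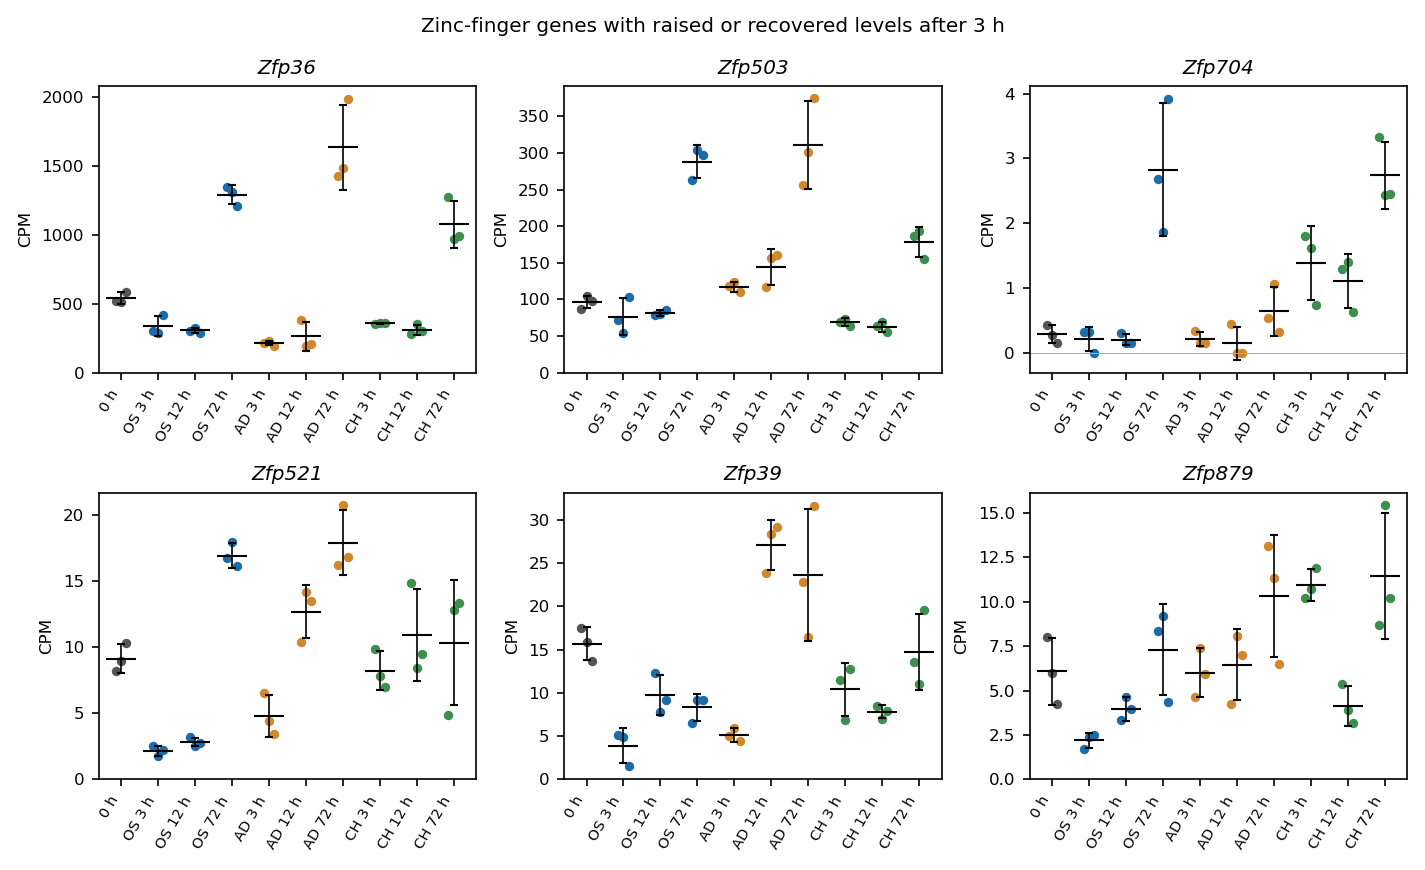
CPM (vertical, linear) of Zfp36, Zfp503, Zfp704, Zfp521, Zfp39 and Zfp879 in the 10 groups (horizontal). Points are samples, the bar is the mean and the whiskers the SD of 3 samples, and Zfp36 and Zfp503 stand highest at 72 h whereas Zfp521, Zfp39 and Zfp879 are lowest at 3 h of OS.

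Of 12 zinc-finger genes known to regulate fat, bone or cartilage cells, 4 were in the files and 3 were tested, namely Zfp521, Zfp467 and Zfp638. The fourth, Zfp423, was listed at 0 in 29 of 30 samples. Zfp521 fell in early OS and returned to or above its starting level by 72 h. Its level was 8.16, 8.91 and 10.3 CPM at 0 h, 2.51, 1.74 and 2.21 at 3 h of OS, 3.16, 2.54 and 2.74 at 12 h and 16.7, 17.9 and 16.1 by 72 h. The 6 early OS samples all lay below, and the 72 h samples above, the 0 h samples. The fall was 4.24-fold at 3 h (log2 fold change -1.69, SE 0.27, adjusted p 5.16e-06) and 3.24-fold at 12 h (log2 fold change -1.41, SE 0.27, adjusted p 6.01e-05), and the return from 12 to 72 h had a log2 fold change of 2.23 (adjusted p 3.44e-08). The 72 h level was not past the fold threshold over 0 h (log2 fold change 0.83, SE 0.27, adjusted p 0.0186). At 3 h of AD the samples held 6.52, 4.41 and 3.42 CPM (log2 fold change -0.84, SE 0.27, adjusted p 0.0118), also under the fold threshold, which the difference passed after median-ratio scaling (-1.06) and with edgeR (-1.12). By 12 h of AD they held 10.4, 14.2 and 13.5 CPM, a log2 fold change of 1.27 from 3 h (adjusted p 4.24e-04). By 72 h of AD they held 16.2, 20.7 and 16.8 CPM, all above 0 h as in OS, and limma did not call this difference. EdgeR and median-ratio scaling each called 4 of the 9 comparisons of Zfp521 with 0 h, against 2 by limma. Zfp521 was lower in OS than in CH at 3 h (-1.54, adjusted p 7.48e-05), and at 12 h lower in OS than in AD (-1.84, adjusted p 2.57e-06) and in CH (-1.61, adjusted p 1.35e-05). These calls were kept without any single library and under every scaling.

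Zfp638, a cofactor of C/EBP proteins in early fat cell formation, was at 4.15, 4.32 and 4.09 CPM at 0 h and 10.5, 7.27 and 11.6 CPM at 72 h of AD. The rise (log2 fold change 1.03, SE 0.24, adjusted p 7.82e-04) was lost without replicate 1 (0.97) or replicate 3 (0.91) of AD at 72 h, a group in which the marker sums shifted, and the part of that shift was not tested. At 72 h of CH it was 2.82, 3.98 and 3.56 CPM, lower than in AD by a log2 difference of -1.26 (adjusted p 4.61e-05), a call kept without any single library. In OS at 72 h it was 4.48, 6.55 and 5.73 CPM, between the other lineages. Zfp467, which promotes fat over bone formation in marrow stroma, was near the floor throughout, with 5 to 14 reads a sample at 0 h (1.0, 0.696 and 2.12 CPM). It was listed at 0 in all samples of 3 h of AD and of CH, and had at most 1 read at 3 h of OS and at 72 h of CH. It therefore fell at least 3.06-fold in AD at 3 h and at least 3.04-fold in CH at 3 h, with 3 reads per library as the floor. These calls, and those in OS at 3 h and in CH at 72 h, were all lost without replicate 3 of 0 h (log2 fold changes of -0.81 in OS, -0.88 in AD, -0.88 in CH at 3 h and -0.79 in CH at 72 h). At 12 h of AD it was again at 0.585, 1.84 and 0.925 CPM, and the rise from 3 h was lost without replicate 2 of that group (0.80).

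Several members had their highest levels at 3 or 12 h. Zfp593, whose yeast counterpart acts in export of the large ribosomal subunit, was at 17.2, 16.0 and 19.7 CPM at 0 h. At 3 h it held 56.4, 44.7 and 96.6 CPM in OS, 44.5, 38.6 and 39.6 in AD and 35.8, 36.8 and 33.2 in CH, all above 0 h. The rise was 3.74-fold in OS (log2 fold change 1.77, SE 0.19, adjusted p 3.66e-09) and 2.32-fold in AD (log2 fold change 1.17, SE 0.19, adjusted p 6.05e-06), and in CH just short of the fold threshold (log2 fold change 0.96, SE 0.19, adjusted p 8.73e-05). The OS call did not depend on the outlying replicate 3. After median-ratio scaling the AD value was 0.93, under the fold threshold, whereas edgeR kept the call. At 12 h of OS the samples held 33.9, 42.7 and 36.9 CPM (log2 fold change 1.06, SE 0.19, adjusted p 2.09e-05). That call was lost after median-ratio scaling (0.73), with edgeR (0.82) and without replicate 2 of OS 12 h (0.97) or of 0 h (0.99). By 72 h all 9 samples lay between 13.7 and 21.1 CPM, beside 16.0 to 19.7 CPM at 0 h. Zfp830, a splicing-associated member, and Zfp106, an RNA-binding one, were the other tested members of a list of 13 zinc fingers of RNA, ribosomes, the spindle or ubiquitin. Limma called neither in any of the 24 comparisons (unadjusted p under 0.05 in 11 for Zfp830 and 7 for Zfp106), with 37.8 to 39.3 CPM at 0 h and 32.4 to 73.9 CPM elsewhere for Zfp830, and at most 1.42 CPM in any sample for Zfp106. EdgeR called Zfp106, with 0 or 1 read a sample at 72 h of CH, lower there than at 0 h and than at 72 h of OS.

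Zfp367 had 2 to 6 reads a sample at 0 h (0.286, 0.696 and 0.910 CPM). In OS it was 1.25, 2.69 and 8.99 CPM at 3 h, 3.77, 5.38 and 4.42 at 12 h and 0, 0.156 and 0 by 72 h. The 3 h samples spread widely, and those of 12 h were all well above 0 h. The 12 h rise (log2 fold change 1.77, SE 0.38, adjusted p 2.95e-04) was kept without any single library. The 3 h rise (log2 fold change 1.44, SE 0.38, adjusted p 0.00285) rested on the outlying replicate 3, without which it was 0.84 (adjusted p 0.0611). By 72 h of OS all samples were at or under the floor, at least 9.92-fold lower than at 12 h (adjusted p 5.22e-06). At 3 h of AD Zfp367 was 3.98, 0.944 and 2.23 CPM, also above every 0 h sample, and limma did not call this difference. In CH it was 2.25, 3.38 and 2.34 CPM at 3 h, a rise (log2 fold change 1.17, SE 0.38, adjusted p 0.0139) lost after median-ratio scaling and without replicate 2 of CH 3 h (adjusted p 0.0626) or replicate 1 of 0 h (0.0669). At 12 h OS exceeded CH, where the level was 1.16, 0.312 and 0.317 CPM (log2 difference 1.82, adjusted p 2.94e-04). The difference from AD at 12 h (0.731, 3.13 and 1.30 CPM, log2 difference 1.11, adjusted p 0.0243) was lost without replicate 2 or 3 of OS or replicate 1 or 3 of AD at 12 h, with adjusted p of 0.0866, 0.0531, 0.121 and 0.0790, and with edgeR (adjusted p 0.0988). The fall in AD from 12 to 72 h was lost without replicate 2 of AD 12 h (-0.85). That in CH from 3 to 12 h was lost without replicate 2 or 3 of CH 12 h or replicate 2 of CH 3 h (adjusted p 0.0780, 0.0790 and 0.0868).

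Zfp296, known from embryonic stem cells and reprogramming, was the only tested member of a list of 12 such genes. It was at 1.29, 0.836 and 1.52 CPM at 0 h and was raised through OS, with 4.23, 3.63 and 7.19 CPM at 3 h, 3.16, 3.29 and 4.57 at 12 h and 4.48, 3.74 and 4.22 by 72 h. All 9 OS samples lay above all 0 h samples. The log2 fold changes were 1.41, 1.08 and 1.23 (SE 0.35 each, adjusted p 0.00138, 0.0116 and 0.00709). The 12 h call was lost after median-ratio scaling (0.85) and without replicate 3 of OS 12 h (0.94) or replicate 2 of 0 h (0.95). At 72 h of AD it was 0.890, 1.24 and 0.950 CPM, below every OS sample (log2 difference 1.35, adjusted p 0.00245). At 3 h the samples held 3.15, 3.38 and 2.46 CPM in CH (log2 fold change 0.86) and 1.77, 2.36 and 1.78 in AD (0.43). These too lay above all 0 h samples. In CH and AD no comparison with 0 h passed the threshold in limma.

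Zfp668, implicated in DNA repair, was at 2.01, 0.557 and 1.06 CPM at 0 h, 5.86, 5.82 and 2.97 at 3 h of AD and 3.75, 3.08 and 5.41 at 3 h of CH. Both rises passed the threshold (log2 fold change 1.42, SE 0.35, adjusted p 0.00141 in AD and log2 fold change 1.23, SE 0.35, adjusted p 0.00508 in CH). At 3 h of OS it was 3.60, 3.00 and 1.66 CPM (log2 fold change 0.78, SE 0.35, adjusted p 0.0774). The fall in AD from 3 to 12 h was lost without replicate 3 of AD 12 h (log2 fold change -1.02, adjusted p 0.0554). Zfp541, known from meiotic germ cells, entered the members through 3 h of AD alone, so its difference is a description. It held 11.4, 6.92 and 7.58 CPM there (44 to 103 reads), 0 reads in every 0 h sample, and at most 7 reads in any other sample. In the 12 h AD samples it was 0.146, 0.921 and 1.30 CPM. Taking 3 reads per library as the floor, the 3 h AD level was at least 19.9-fold that of 0 h. Among the other members, the group means of Zfp703 were most like its own (Pearson's r 0.79 over 10 group means, a description).

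**Figure D4:**
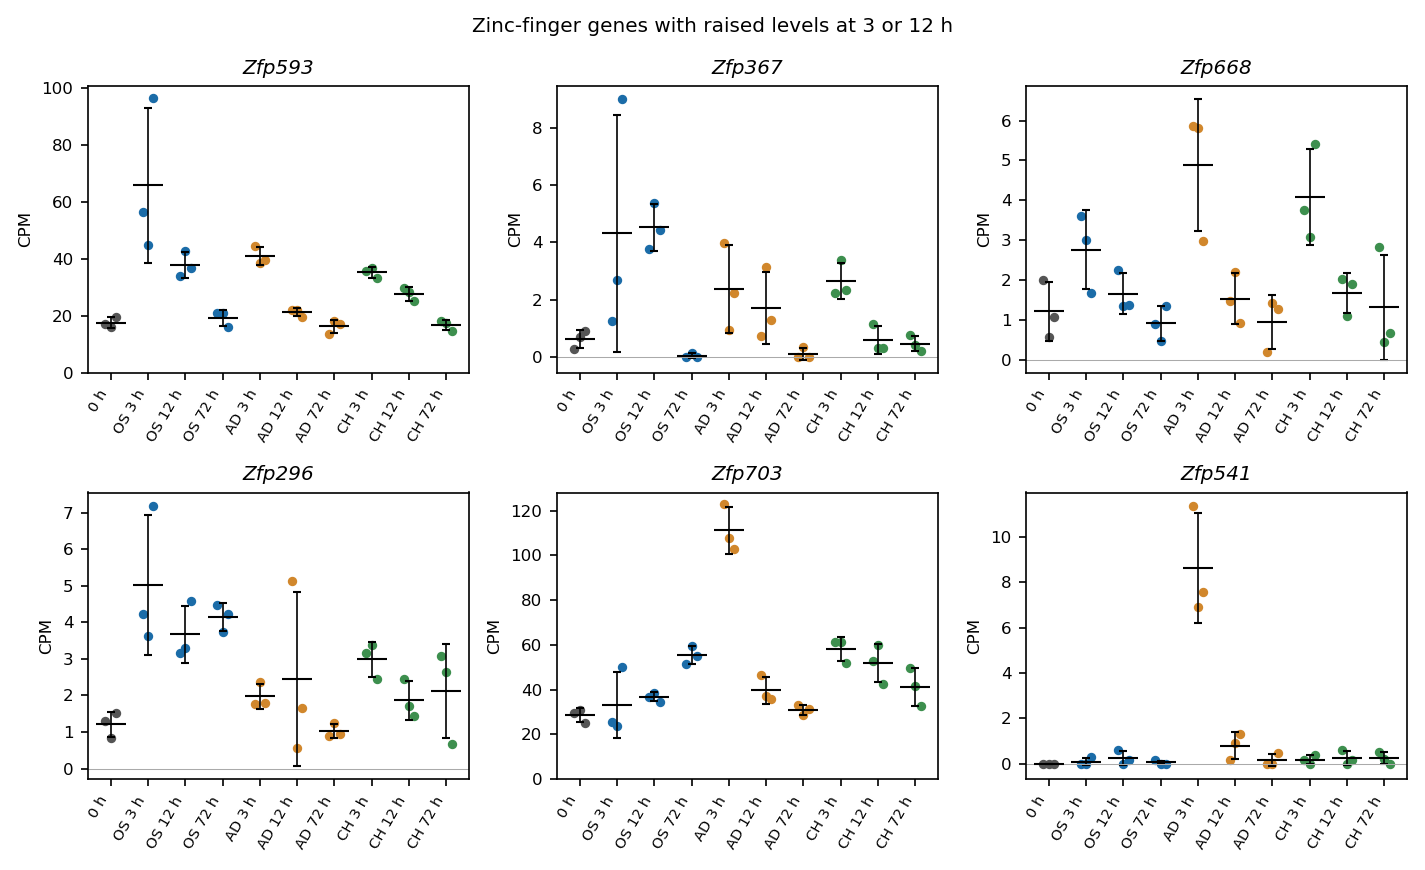
CPM (vertical, linear) of Zfp593, Zfp367, Zfp668, Zfp296, Zfp703 and Zfp541 in the 10 groups (horizontal). Points are samples, the bar is the mean and the whiskers the SD of 3 samples, and Zfp703 and Zfp541 stand highest at 3 h of AD whereas the spread of Zfp593 and Zfp367 at 3 h of OS comes from 1 high sample.

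Zfp39, Zfp879 and Zfp667 belong to the KRAB class, and limma called lower levels of them against 0 h early in OS or AD. Near copies are common in this class and how reads shared between copies were counted is not given in the sources used here, so their values are less certain. Zfp39 was at 17.5, 15.9 and 13.6 CPM at 0 h, 5.17, 4.90 and 1.52 at 3 h of OS and 4.97, 5.98 and 4.46 at 3 h of AD, without overlap. The falls were 4.06-fold in OS (log2 fold change -1.88, SE 0.28, adjusted p 2.49e-06) and 3.05-fold in AD (log2 fold change -1.44, SE 0.28, adjusted p 1.17e-04), and both were kept without any single library. In AD the level then went to 23.8, 28.4 and 29.2 CPM at 12 h, a rise from 3 h of 2.20 on the log2 scale (adjusted p 3.98e-07), and all 3 samples exceeded those of 0 h. In OS at 12 h it was 12.4, 7.77 and 9.14 CPM, and the rise from 3 h (1.23) was 0.81 without the outlying replicate 3 of OS 3 h. By 72 h of OS it was 6.56, 9.21 and 9.19 CPM. In CH it was 11.5, 6.90 and 12.8 CPM at 3 h and 8.52, 7.01 and 7.92 at 12 h. Samples of these groups all lay below 0 h, and limma did not call the differences. By 72 h of CH it was 13.6, 11.1 and 19.6 CPM, which overlapped 0 h. EdgeR called 4 of the 9 comparisons of Zfp39 with 0 h, against 2 by limma. Zfp39 was lower in OS than in AD at 12 h (-1.40, adjusted p 2.45e-04) and at 72 h (-1.37, adjusted p 2.65e-04), and lower in CH than in AD at 12 h (-1.67, adjusted p 2.46e-05). The difference between OS and CH at 3 h (-1.30) was -0.88 without the same outlying replicate.

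Zfp879 was at 8.02, 5.99 and 4.25 CPM at 0 h and 1.72, 2.37 and 2.49 CPM at 3 h of OS (log2 fold change -1.12, SE 0.29, adjusted p 0.00206), a call lost without replicate 1 of 0 h (-0.93). At 3 h of CH it was 10.2, 10.7 and 11.9 CPM, above every sample of OS (log2 difference -1.91 for OS against CH, adjusted p 1.01e-05). The difference between OS and AD at 3 h (-1.12) was -0.98 without replicate 2 of AD and -0.99 with quantile normalization. In CH it fell from 3 to 12 h (-1.24) and rose again by 72 h (1.27), both log2 fold changes past the threshold. Zfp667 was at 5.01, 5.01 and 6.52 CPM at 0 h and 2.49, 2.58 and 1.67 CPM at 12 h of AD (log2 fold change -1.01, SE 0.25, adjusted p 0.00156), a call lost without replicate 3 of either group (-0.88 and -0.90). At 12 h CH held 6.64, 5.30 and 6.34 CPM, above every AD sample (log2 difference 1.14, adjusted p 5.24e-04).

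Zfp704 and Zfp536 separated the lineages at 72 h at low counts. Zfp704, a relative of Zfp395, had 1 to 3 reads a sample at 0 h. At 72 h it was 2.69, 1.87 and 3.92 CPM in OS, 3.33, 2.43 and 2.45 in CH and 0.534, 1.06 and 0.317 in AD. Every OS and CH sample lay above every AD sample. The level was at least 6.51-fold that of 0 h in OS (adjusted p 5.97e-06) and at least 6.30-fold in CH (adjusted p 4.08e-06), with 3 reads per library as the floor. The log2 difference from AD was 1.21 for OS and 1.21 for CH (adjusted p 1.32e-04 and 9.11e-05), the latter 0.99 when the listed genes were scaled to an equal sum in each sample. In CH it was already at 1.80, 1.61 and 0.738 CPM at 3 h and 1.30, 1.40 and 0.634 at 12 h, neither past the threshold against 0 h in limma, whereas edgeR called the 3 h rise (adjusted p 0.0327). In OS, by contrast, it had at most 2 reads in any sample of 3 or 12 h. Zfp536, known as a repressor of neuronal differentiation, was at 0.573, 1.25 and 1.82 CPM at 0 h and was listed at 0 in all samples of 72 h of OS and AD. At 72 h of CH it was 2.31, 1.33 and 2.45 CPM, at least 4.45-fold over OS and at least 3.94-fold over AD (adjusted p 4.60e-05 and 3.41e-05), and these calls were kept without any single library. Its 4 falls against 0 h (OS at 72 h and AD at 3, 12 and 72 h) were each lost without replicate 3 of 0 h, which gave log2 fold changes of -0.91, -0.86, -0.83 and -0.91. The AD 12 h fall was also lost without replicate 2 of 0 h or replicate 1 or 3 of AD at 12 h (-0.99 each). The rise in CH from 12 to 72 h was lost without replicate 3 of CH 12 h (0.85) or of CH 72 h (0.99), and with edgeR (adjusted p 0.0712).

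Of the 4 BTB members, Zbtb38, a methyl-CpG binding protein and the only tested one of 3, was at 1.43, 0.696 and 2.58 CPM at 0 h and 0.221, 0.315 and 0.149 CPM at 3 h of AD (log2 fold change -1.0, SE 0.29, adjusted p 0.00652). The call lay at the threshold and was lost without replicate 1 (-1.0) or 3 (-0.95) of AD at 3 h or replicate 3 of 0 h (-0.73). Zbtb25, Zfp706 and Zfp365, the remaining members changed against 0 h, and Zfp180 lie outside the rule for named genes and were chosen after their values were seen. Zbtb25 was at 1.15, 0.975 and 0.607 CPM at 0 h and 3.13, 2.65 and 2.71 CPM at 72 h of OS (log2 fold change 1.01, SE 0.24, adjusted p 0.00156), a call lost after median-ratio scaling (0.94) and without replicate 1 of OS 72 h (0.96) or replicate 3 of 0 h (0.89). At 3 h of OS it was 0, 0.158 and 0 CPM, 0 or 1 read a sample and below every 0 h sample (log2 fold change -0.85 in limma, adjusted p 0.00494), and edgeR called lower levels at 3 h of OS and of CH (adjusted p 7.66e-04 and 0.0151). Zfp706 was at 144, 161 and 147 CPM at 0 h and 293, 321 and 308 CPM at 3 h of CH (log2 fold change 1.03, SE 0.10, adjusted p 3.84e-10). That call was lost after median-ratio scaling (0.69) and with edgeR (0.75), and the value stood at 0.99 without replicate 2 of CH 3 h or 0.99 without replicate 1 of 0 h. Zfp365, which protects genome stability, was at 5.87, 5.15 and 7.43 CPM at 0 h and 2.19, 2.21 and 3.15 CPM at 12 h of AD (log2 fold change -1.02, SE 0.35, adjusted p 0.0224), lost without replicate 1 (-0.96) or 2 (-0.96) of AD 12 h or replicate 3 of 0 h (-0.90). Zfp180, a KRAB member, did not pass the threshold against 0 h (171, 182 and 171 CPM) but divided the lineages at 72 h, with 261, 263 and 250.4 CPM in CH, 109, 117 and 113 in OS and 122, 117 and 86.2 in AD. The CH samples exceeded all others of that time, by log2 differences of 1.26 over AD and, written for OS against CH, -1.18 (adjusted p 1.82e-11 and 1.01e-10). Zfp180 fell from 12 to 72 h of OS by -1.31 on the log2 scale (adjusted p 8.14e-12), and these 3 calls were kept without any single library. With quantile normalization the difference between CH and AD was 0.79 and the fall in OS -0.95, both under the fold threshold.

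Between lineages at the same time, which does not use the 0 h samples, 6 members changed at 3 h (beside 15.0% of all tested genes), 7 at 12 h (25.9%) and 8 at 72 h (35.3%). Between successive times 10 changed in OS (27.0%), 9 in AD (26.2%) and 6 in CH (18.6%). Without the 5 members that fell under the filter when 1 group was set aside, the counts were 5 between lineages at 3 h (Zfp541 left out), 6 at 12 h (Zfp354c left out) and 8 between times of AD (Zfp541 left out). In all 24 comparisons together limma called 27 members at least once, against 67.1% of all tested genes, and 21 in none, the 27 becoming 25 without Zfp354c and Zfp541. EdgeR called 37, against 73.4% of all tested genes, including 11 of those 21, and limma after median-ratio scaling called 4 of the 21 (Zbtb12, Zfp394, Zfp583 and Zfp62). Of the 27, 7 changed only between lineages or times, Zfp180 among them, and the other 6 are given here after their values were seen. Zfp354c, which passed the filter through 12 h of CH (1.30, 1.25 and 1.58 CPM), is a description there. The call of Zfp113 between OS and AD at 12 h (-1.22) was -0.98 without replicate 3 of AD 12 h, and that of Zfp933 between CH and AD at 72 h (-1.20) was -0.86 without replicate 2 of CH 72 h. Zfp174 rose in OS from 12 to 72 h (1.08), with 0.89 without replicate 3 of OS 72 h and 0.95 without replicate 2 of OS 12 h. Zfp395 was higher in OS than in CH at 72 h (1.09), with 0.99 without replicate 3 of OS 72 h. Zfp773-ps1, which the files name as a pseudogene, had 3 calls, and the rise in OS from 12 to 72 h (1.13) was 0.99 without replicate 2 of OS 72 h. Its rise in CH over the same interval (1.03) was 0.93 and 0.97 without replicates 2 and 3 of CH 72 h, 0.99 without replicate 2 of CH 12 h and just under 1 without replicate 3 of CH 12 h, and its lower level in OS than in CH at 3 h (-1.06) was -0.96 without replicate 3 of OS and -0.75 without replicate 2 of CH. The group means of the 21 that limma did not call spanned 0.59 to 1.31 log2 units, and they included Zbtb11, Zbtb12, Zfp277 and Zkscan3, the last of these known as a repressor of autophagy genes. Among the 23 members detected in every sample, 72 h of AD held the highest group mean of 8 (Zbtb12, Zfp113, Zfp3, Zfp36, Zfp394, Zfp503, Zfp521 and Zfp638) and 3 h of OS the lowest of 6 (Zfp3, Zfp39, Zfp394, Zfp521, Zfp691 and Zfp879). The listed genes held 38.9 to 49.0% of reads at 72 h of AD, beside 53.7 to 54.2% at 0 h, and the part of this share in the order of levels was not tested. The median log2 fold change of the members was -0.29 at 3 h and -0.18 at 12 h of OS, beside 0.09 for all tested genes at both times.

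As a description over the 10 group means of log2(CPM + 1), which share samples and depth, the profile most like that of Zfp36 was that of Zfp503 (Pearson's r 0.80) and the least like it that of Zfp367 (-0.78). Zfp367 was most like Zfp593 (r 0.86), and Zfp521 ran opposite to both (r -0.89 and -0.87). Pairs of members with no protein-coding gene between them in GRCr8 were Zfp583 and Zfp667 (r 0.50), Zfp354c and Zfp879 (0.27), and Zkscan5 and Zfp394 (0.59). Of the proteins through which these factors work, the KRAB cofactors could not be tested, since 1 of 8 was in the files (Setdb1) and it did not pass the filter. Of 12 BTB partners 3 were tested (Hdac1, Hdac2 and Hdac3), and limma called none against 0 h (unadjusted p under 0.05 in 7, 4 and 1 of 9 comparisons). Hdac3, at 0.91 in AD at 72 h, was called higher there by edgeR (1.27) and after median-ratio scaling (1.10). Of 7 BTB zinc fingers with other names 2 were tested, and Hic1, a repressor with a tumour suppressor role, rose in 6 of the 9 comparisons with 0 h, namely at 72 h in OS, at 12 and 72 h in AD and at all 3 times in CH.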

How the data were processed

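RNA from 30 samples of rat BMSCs, 3 in each of 10 groups, was analysed. According to the study's methods, 3 cultures were pooled for each sample, and an mRNA kit and a NovaSeq instrument were used, whereas the sample labels describe removal of ribosomal RNA. The submitters' processing notes name Trimmomatic, HISAT2 and StringTie, and the genome build is not given in the sources used here. The values the authors deposited are named FPKM, yet they are CPM, since each was a whole multiple of the smallest value of its sample (100% of values, within 0.01 of a read), which gave reads and totals of 3899609 to 9046719. The tests had been planned for FPKM-type values, and the same tests were used.

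Values under the same gene name were summed (4 members were affected). The 4363 genes that reached 1 CPM in 3 or more samples were tested on log2(CPM + 1) with limma 3.58.1 (R 4.3.3), using 1 model of 10 groups without covariates and a trended variance prior. Calls required a log2 fold change of 1 or more in either direction with a Benjamini-Hochberg adjusted p below 0.05, adjusted over the tested genes of each comparison. Since nothing states that the samples of a group came from different animals, p-values measure only the spread between samples. The fits were repeated with median-ratio scaling, quantile normalization, an equal sum of the listed genes, a pseudocount of 0.1, no filter, a fit on the groups compared, a replicate block, names kept apart, each library left out, and edgeR 4.0.16 (quasi-likelihood) on the recovered reads. All pairs of samples within a group differed beyond counting noise. Both tests were checked on simulated data.

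Members were named if, against 0 h, they were among the 3 strongest rises or falls of a group and kept the call without each library, with all samples on 1 side. Also named were the largest differences of the lineage and time comparisons under the same condition, members called in 5 or more of the 9 comparisons with 0 h, and the measured members of 5 lists by function. The members and all lists were chosen with earlier results of these data known. Promoters came from RefSeq. Tables and plots used matplotlib 3.10.9, pandas 2.3.3, numpy 2.4.6 and scipy 1.17.1 in Python 3.11.15.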

Additional observations from a re-analysis of the deposited data

Results flagged for a closer look

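Several members differed between lineages at the same time by limma on log2(CPM + 1), in the difference itself. The values below are log2 differences, first lineage minus second.

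At 3 h, Zfp703 was lower in OS than in AD (-1.79), and Zfp541, which entered the members only through AD at 3 h, was at -3.12 in OS and -3.02 in CH against AD. Zfp879 was lower in OS than in AD (-1.12) and CH (-1.91). Zfp39 (-1.30) and Zfp521 (-1.54) were lower in OS than in CH. At 12 h, Zfp521 was lower in OS than in AD (-1.84) and CH (-1.61), and Zfp367 was higher in OS than in AD (1.11) and CH (1.82). Zfp667 was higher in CH than in AD (1.14). At 72 h, Zfp296 was higher in OS than in AD (1.35) and Zfp638 lower in CH than in AD (-1.26). Zfp704 exceeded AD by 1.21 in both OS and CH, and Zfp536 was at -1.58 in OS against CH and at 1.58 in CH against AD. Apart from Zfp541, the adjusted p of these differences ran from 1.81e-08 to 0.0243, and the 3 samples of each lineage lay on 1 side of the other lineage in each of them. Some calls were lost without a single library. These were Zfp39 in OS against CH at 3 h (-0.88 without replicate 3 of OS) and Zfp879 in OS against AD at 3 h (-0.98 without replicate 2 of AD). Zfp367 in OS against AD at 12 h was lost without any of several libraries and with edgeR.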

How the results depend on the processing

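The numbers of changed members moved most with edgeR, a smaller pseudocount and scaling. With edgeR the count was 13 in OS at 3 h, 11 in OS at 12 h, 14 in AD at 3 h, 8 in CH at 3 h and 5 in CH at 12 h (beside 23.1, 26.9, 23.3, 20.7 and 17.4% of all tested genes). Between lineages edgeR called 13 at 3 h, 14 at 12 h and 16 at 72 h (beside 18.5, 33.6 and 40.5% of all tested genes), and it called 14 between successive times of AD (30.4%). With a pseudocount of 0.1 the count was 7 in OS at 12 h, 9 in CH at 3 h, 2 in CH at 12 h and 4 in CH at 72 h (28.7, 23.1, 18.8 and 23.8% of all genes), 13, 12 and 14 between lineages at 3, 12 and 72 h (18.0, 34.5 and 44.0%), and 10 between successive times of CH (24.0%). In CH at 3 h quantile normalization, median-ratio scaling and the same sum over listed genes each gave 3 (15.9, 16.0 and 16.2%). In CH at 12 h these gave 2, 5 and 4 (13.3, 13.6 and 13.5%). The same sum gave 16 between lineages at 72 h (37.2%).

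Leaving out 1 library gave 6 to 9 members in OS at 3 h, 3 to 6 at 12 h and 4 to 6 at 72 h, 7 to 11, 1 to 4 and 3 to 4 in AD, and 2 to 7, 0 to 1 and 1 to 3 in CH, while 12.6 to 22.6% of all genes were called. Between lineages it gave 4 to 9, 7 to 10 and 7 to 10, and between successive times 9 to 11 in OS, 8 to 11 in AD and 3 to 7 in CH, while 14.9 to 37.3% and 18.6 to 28.3% of all genes were called. The cause of these changes was not tested. Replicate numbers did not pair the samples (correlations of same-numbered samples -0.23 to 0.16, median -0.01, and 6 of 30 samples closest to their own number). With a replicate block the counts against 0 h stayed at 7, 4 and 6 in OS, 9, 4 and 4 in AD and 5, 0 and 2 in CH, and no call changed. Of 81 calls of named members, 81 were kept with the block, 77 with edgeR, 76 with median-ratio scaling and 436 of 486 single-library omissions. No call of a named member changed sign under any alternative run. The balance of higher and lower members turned in OS at 12 h, from 3 and 1 to 1 and 4 with median-ratio scaling and 2 and 9 with edgeR, and in CH at 3 h, from 4 and 1 to 1 and 2 and to 3 and 5. Members near 3 reads could not be ranked at this depth.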
